A study of Mus musculus with 6 samples.

Results

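The genes described here are 10 neuroendocrine genes of the thyroid C cell: the calcitonin genes *Calca* and *Calcb*, the granins *Chgb*, *Scg2* and *Scg3*, the prohormone convertases *Pcsk1* and *Pcsk2*, the receptor tyrosine kinase gene *Ret*, the amine enzyme gene *Ddc* and the vesicle membrane gene *Syp*. They were chosen by name, and all 10 were found among the 21878 genes of the count table. RNA-seq was performed on thyroid glands of female mice at the age of 12 weeks, with 3 libraries labelled WT (*Thy-Tet1+/+*, wild-type littermates) and 3 labelled TET1 KO (*Thy-Tet1-/-*). The knockout line came from *Tet1* flox/+ mice and was designed to lose *Tet1* in follicular epithelial cells. The labels give no further treatment or allele for either group. All values below were compared between these groups of 3 libraries, errors are SDs unless stated otherwise, and p-values measure only the spread between these libraries.

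C cells are the neuroendocrine cells that lie between and beside the thyroid follicles, and they are greatly outnumbered by follicular cells. They make calcitonin, the hormone that lowers blood calcium, from the *Calca* gene, whose transcript can also be spliced to encode calcitonin gene-related peptide (CGRP). The hormone is stored in dense-core granules with granins, cut from its precursor by prohormone convertases and released when extracellular calcium rises. *Ret*, the receptor for ligands of the GDNF family, is expressed by C cells and is the gene activated by mutation in medullary thyroid carcinoma, the tumour of C cells.

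Total counts ranged from 8867683 in wild-type replicate 1 to 19950898 in wild-type replicate 2. CPM are counts scaled to library size. By total counts alone, 3 counts corresponded to between 0.150 and 0.338 CPM. The CPM values below also use TMM, a correction for library composition. *Tet1*, the targeted gene, went against its label. It was counted at 5.69, 3.80 and 3.44 CPM in the wild-type libraries and at 9.37, 9.60 and 12.2 CPM in the libraries labelled *Thy-Tet1-/-* (log2 fold change 1.28, SE 0.27, edgeR adjusted p = 0.101, two-sided exact permutation p = 0.10, the smallest possible with 3 against 3). The counts cover the whole gene in whole glands, so they cannot show whether the floxed exons were deleted in follicular cells, and groups are named by their labels throughout. In the follicular list, 9 genes led by *Tg* (thyroglobulin) summed to between 256320 and 316460 CPM in the wild-type libraries and to between 193320 and 239210 CPM in those labelled *Thy-Tet1-/-*, and the groups were separate. Wild-type replicate 2 stood apart by its low level of 4 parathyroid markers (192 CPM, against 7949 to 31340 CPM in the other libraries).

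*Calca* was by far the most abundant of the genes. Its CPM was 1902, 4612 and 2439 in wild-type replicates 1 to 3 and 4659, 4599 and 3653 in replicates 1 to 3 labelled *Thy-Tet1-/-*, and it took between 0.181% and 0.499% of all counts of a library. The highest wild-type library reached the level of the labelled knockout libraries, and the other two lay below all of them. Per kilobase of transcript, a scale on which levels of different genes can be compared, *Calca* made up between 84.8% and 93.4% of the summed level of the 10 genes in each library.

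The order of the genes per kilobase was similar in both groups. In wild-type libraries the means were 3002 CPM per kb for *Calca*, 194 for *Scg2*, 35.4 for *Pcsk2*, 30.4 for *Scg3*, 16.1 for *Chgb*, 16.1 for *Ret*, 12.6 for *Pcsk1*, 8.11 for *Ddc*, 5.21 for *Syp* and 0.821 for *Calcb*. Neighbours in this order had separate ranges between *Calca* and *Scg2*, *Scg2* and *Pcsk2*, *Scg3* and *Chgb*, and *Syp* and *Calcb*, and overlapped elsewhere. In the libraries labelled *Thy-Tet1-/-* only *Ret* stood at another place in this order, from level with *Chgb* to below *Pcsk1*, at 7.39 CPM per kb against 13.3. The ranges of *Ret* and *Pcsk1* overlapped there, and the separate neighbours were *Calca* and *Scg2*, *Scg2* and *Pcsk2*, and *Syp* and *Calcb*.

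**Figure D1:**
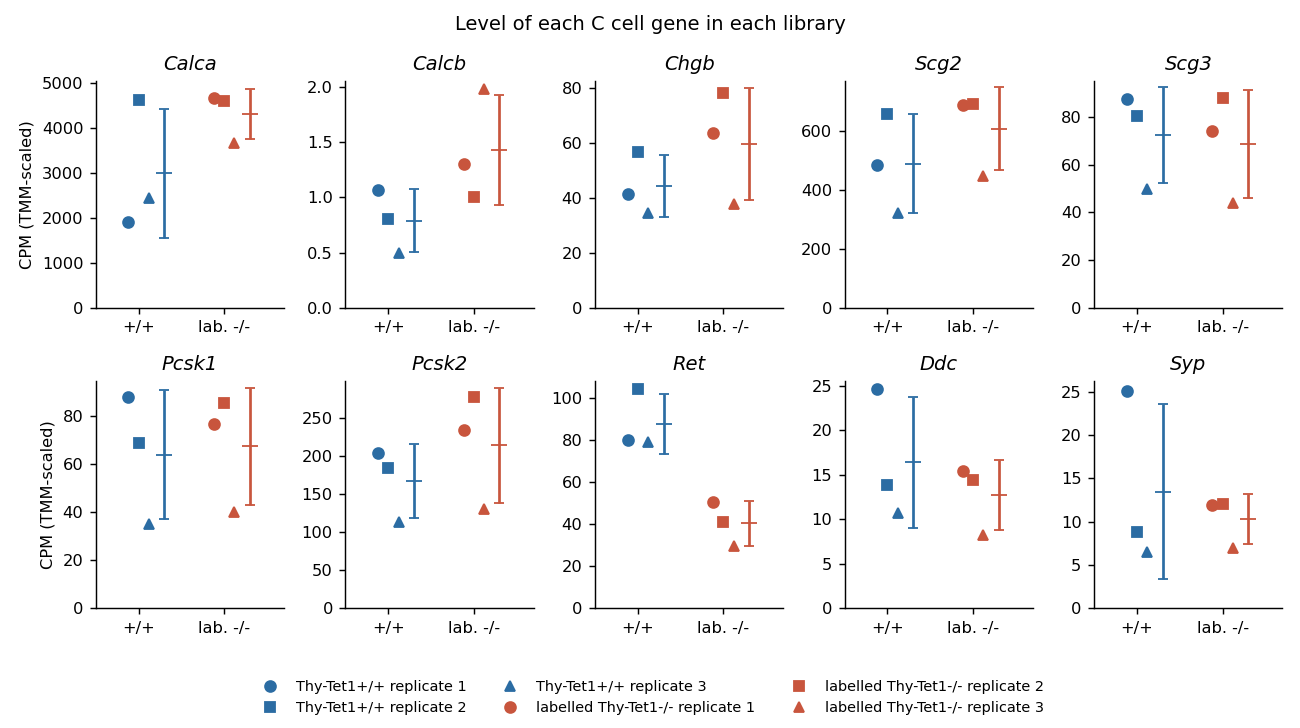
Level of each of the 10 genes in each library (y axis, TMM-scaled CPM, starting at 0), with the libraries of each group side by side (x axis; lab. -/-, labelled Thy-Tet1-/-). Symbols give the replicate number, and bars give the mean and SD of 3 libraries. The groups are separate for *Ret* and overlap for the other 9 genes.

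The genes lie on 8 chromosomes, with only *Calca* and *Calcb* close together (positions in GRCm38, the assembly also called mm10, from GENCODE M21). *Calca* lies at chr7:114631478-114636357 on the minus strand and *Calcb* at chr7:114718643-114723365 on the plus strand, 82285 bases away. *Ret* lies at chr6:118151745-118197718 on the minus strand, with 20 exons in its longest coding transcript. No exon of *Ret* or *Calca* shares bases with another annotated gene, whereas *Pcsk2* shares 260 and 99 exonic bases with the antisense transcripts Pcsk2os1 and Pcsk2os2 and *Syp* shares 875 with Gm14703. Whether the counting used strand is not given in the sources used here, so reads of *Pcsk2* and *Syp* cannot be told from those of their antisense partners.

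Upstream sequence was examined for 8 of the 10 genes, and *Ret* and *Calcb* were not analysed here in this way. The cAMP response element, bound by CREB-family factors in many neuroendocrine genes, was searched as TGACGTCA and as its shorter core TGACG on both strands in the 250 bases before each start site (the long form reads the same on both strands and contains the core on each). The long form was present in *Chgb*, *Scg2* and *Pcsk1*, that is 3 of 8 genes, and in 1.55% of 32851 mouse promoters of the same length. The core was present in 6 of 8 genes, adding *Calca*, *Scg3* and *Pcsk2*, against 17.8% of all promoters, and neither form was in the windows of *Ddc* or *Syp*. These matches describe sequence only. Start sites differ between annotations. In GENCODE M21 *Chgb* starts at chr2:132781278 and *Scg2* at chr1:79440120, so their matches lie inside the genes as annotated there. The windows of the 3 genes with the long form and of *Calca*, the gene with the highest level, are shown here 5′ to 3′ from RefSeq (GRCm38.p6), each ending at the base before the start site, with matches in capitals. The first letter of the match lies 65 bases before the start in *Calca* (chr7:114636358-114636607, minus strand), 72 in *Chgb* (chr2:132781392-132781641, plus strand), 68 in *Scg2* (chr1:79440027-79440276, minus strand) and 78 in *Pcsk1* (chr13:75089607-75089856, plus strand), which holds a second core 50 bases before it.
Calca: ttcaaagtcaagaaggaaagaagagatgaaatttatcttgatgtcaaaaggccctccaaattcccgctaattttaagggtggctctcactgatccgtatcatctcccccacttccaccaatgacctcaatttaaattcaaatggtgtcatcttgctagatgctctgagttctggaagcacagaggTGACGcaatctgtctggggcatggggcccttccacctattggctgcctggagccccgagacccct
Chgb: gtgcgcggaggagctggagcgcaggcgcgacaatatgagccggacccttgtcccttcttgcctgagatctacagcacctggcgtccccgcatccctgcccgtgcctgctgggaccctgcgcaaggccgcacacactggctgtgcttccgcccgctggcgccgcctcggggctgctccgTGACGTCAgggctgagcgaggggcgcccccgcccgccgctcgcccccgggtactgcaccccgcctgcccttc
Scg2: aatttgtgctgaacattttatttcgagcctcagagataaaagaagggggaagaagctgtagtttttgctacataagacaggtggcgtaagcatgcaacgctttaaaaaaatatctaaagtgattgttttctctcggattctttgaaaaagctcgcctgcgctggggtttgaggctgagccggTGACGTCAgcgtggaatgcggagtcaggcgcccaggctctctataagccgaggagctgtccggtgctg
Pcsk1: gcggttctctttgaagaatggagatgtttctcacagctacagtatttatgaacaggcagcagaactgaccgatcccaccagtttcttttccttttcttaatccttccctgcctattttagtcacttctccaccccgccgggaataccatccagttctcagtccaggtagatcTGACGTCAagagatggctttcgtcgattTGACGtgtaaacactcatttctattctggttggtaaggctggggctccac

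The groups were compared by edgeR across 14143 genes with sufficient counts, among them all 10 C cell genes. A gene was called by the limits the study used, a change of more than 1.5-fold with an unadjusted p under 0.05. *Ret* alone was called, lower in the libraries labelled *Thy-Tet1-/-*, so that 1 of 10 genes was called against 9.2% of all tested genes (5.54% higher and 3.66% lower). At an adjusted p under 0.05, 0 of 10 passed, against 0.113% of all tested genes, and at an unadjusted p under 0.05 it was 1, *Ret*. DESeq2 passed 1 of 10, *Ret*, at its adjusted p, against 9.01% of its genes, and limma-voom passed 0 of 10, against 0.0919%. The median log2 fold change of the 10 genes was 0.20, with 6 above 0 and 4 below. The calls depend on the scaling. With libraries scaled to 10 epithelial genes such as *Epcam* and *Krt8*, the median log2 fold change of all genes was 0.56. Under this scaling 5 C cell genes were called, all higher, and *Ret* was not. Of all 14143 tested genes 4912 were called, 4860 of them higher. Of the scaling genes under TMM, *Krt8* (log2 fold change -1.18), *Krt7* (-1.13), *Krt19* (-0.92) and *Cdh1* (-0.63) were themselves called lower. *Epcam* lay at -0.18, and only *Cldn4* of the scaling genes lay above 0 (0.38).

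**Figure D2:**
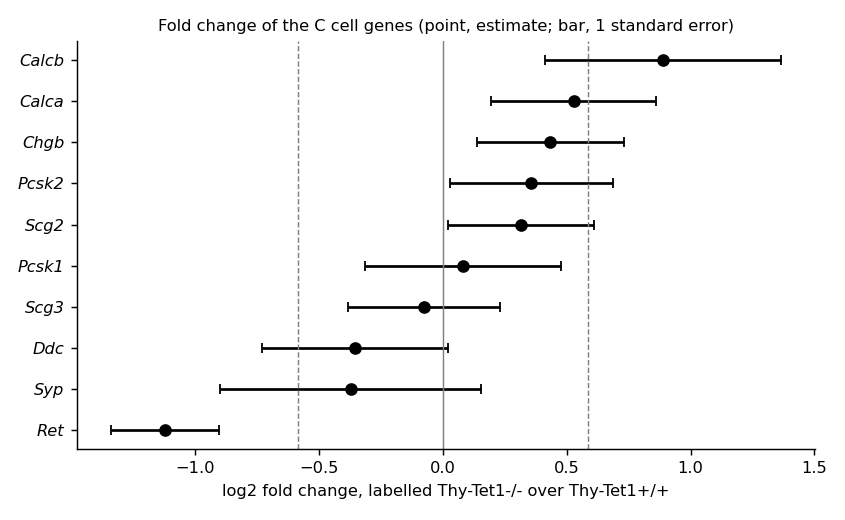
Log2 fold change of each gene (x axis, libraries labelled Thy-Tet1-/- over Thy-Tet1+/+) by edgeR, with bars of 1 standard error and dashed lines at 1.5-fold in either direction. *Ret* lies at -1.12, beyond the lower line, while the bars of *Scg3*, *Pcsk1*, *Ddc* and *Syp* cross 0.

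*Ret* was lower in each library labelled *Thy-Tet1-/-* than in each wild-type library. The counts were 673, 1947 and 1427 in the wild-type libraries and 928, 690 and 580 in those labelled *Thy-Tet1-/-*, or 79.8, 104 and 79.2 CPM against 50.6, 40.9 and 29.5 CPM. The groups did not overlap, which was the case for 26.8% of all tested genes, and the lowest wild-type library lay above the highest labelled knockout library. *Ret* fell by 1.12 on the log2 scale (means 87.7 ± 14.2 and 40.3 ± 10.6 CPM, SE 0.22, edgeR adjusted p = 0.0965). The adjusted p ranged from 3.89e-04 by DESeq2 to 0.310 without the first library labelled *Thy-Tet1-/-*. Without each library in turn the log2 fold change lay between -1.34 and -0.95 and the gene stayed called. Under the epithelial scaling it was -0.53, under the fold limit and still below the median of all genes. In whole glands, fewer cells of a type and less RNA per cell cannot be told apart.

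The other *Calca*-family and granule genes did not separate the groups. *Calca* had a mean of 2984 ± 1435 CPM in the wild-type libraries and 4304 ± 564 in those labelled *Thy-Tet1-/-* (log2 fold change 0.53, SE 0.33, adjusted p = 0.439). This value rests on wild-type replicate 2, the library with few parathyroid transcripts. Without it the log2 fold change was 0.99 and past the limits (edgeR adjusted p = 0.144), and without wild-type replicate 1, where *Calca* was lowest, it was 0.29. Per-gene counts do not separate the calcitonin and CGRP transcripts of *Calca*, which has 6 annotated protein-coding transcripts.

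*Calcb*, which encodes a second CGRP, was at the bottom of the range. Its counts were 9, 15 and 9 in the wild-type libraries and 24, 17 and 39 in those labelled *Thy-Tet1-/-*, or 1.07, 0.802 and 0.499 CPM against 1.31, 1.01 and 1.98 CPM (log2 fold change 0.89, SE 0.48, adjusted p = 0.367). The ranges overlapped. The longest *Calcb* transcript aligns with the longest *Calca* transcript over 793 bases with 81.5% identity and an identical run of 60 bases. With another *Calca* transcript, Calca-202, it aligns over 228 bases with an identical run of 13. Per-gene counts do not show which *Calca* transcript was present. Part of these few counts could belong to *Calca*, and the *Calcb* values are uncertain.

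The granins, acidic proteins that help to form the granule core, had 3 different levels but shared a pattern among libraries. *Scg2* (secretogranin II) was counted at 485, 657 and 322 CPM in wild-type replicates 1 to 3 and at 687, 690 and 446 CPM in those labelled *Thy-Tet1-/-* (log2 fold change 0.32, SE 0.29, adjusted p = 0.612). *Chgb* (chromogranin B) had 41.4, 56.6 and 34.6 CPM against 63.6, 78.0 and 37.7 CPM (0.43, SE 0.30, adjusted p = 0.477). *Scg3* (secretogranin III), which binds other granins to the granule membrane, had 87.4, 80.6 and 49.7 CPM against 74.2, 88.2 and 43.8 CPM (-0.08, SE 0.31, adjusted p = 0.922). In each of the 3 genes, replicate 3 was the lowest of its group and the groups overlapped. *Chgb* rests on the third library labelled *Thy-Tet1-/-*, without which its log2 fold change was 0.67 and past the limits (edgeR adjusted p = 0.297).

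The prohormone convertases cut hormone precursors at pairs of basic residues. *Pcsk2* was counted at 204, 185 and 113 CPM in the wild-type libraries and at 234, 277 and 131 CPM in those labelled *Thy-Tet1-/-* (log2 fold change 0.36, SE 0.33, adjusted p = 0.604). *Pcsk1* had 87.7, 68.7 and 34.8 CPM against 76.5, 85.4 and 39.8 CPM (0.08, SE 0.40, adjusted p = 0.937). Again the third library was the lowest on either side and the ranges overlapped.

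*Ddc*, the decarboxylase that makes dopamine and serotonin, and *Syp*, which encodes the vesicle protein synaptophysin, were highest in wild-type replicate 1. *Ddc* was counted at 24.7, 13.8 and 10.7 CPM in the wild-type libraries and at 15.5, 14.5 and 8.23 CPM in those labelled *Thy-Tet1-/-* (log2 fold change -0.36, SE 0.38, adjusted p = 0.659). *Syp* had 25.2, 8.77 and 6.55 CPM against 11.98, 12.03 and 6.91 CPM (-0.37, SE 0.53, adjusted p = 0.749). Without wild-type replicate 1 the log2 fold changes were 0.05 and 0.43, on the other side of 0.

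The order of the libraries within a group recurred across the genes. Wild-type replicate 3 was the lowest wild-type library for 9 of the 10 genes, all but *Calca*, and the third library labelled *Thy-Tet1-/-* was the lowest of its group for 9, all but *Calcb*. Of all tested genes, 30.4% and 36.3% had these libraries lowest in their groups. Both held for 8 genes, which follows from those counts of 9, and for 9.84% of all tested genes. The C cell genes varied together over the libraries, so they do not count as independent cases. Wild-type replicate 1, the library with the fewest counts, was the highest of its group for 6 genes, and replicate 2 for the other 4, *Calca*, *Chgb*, *Scg2* and *Ret*. Blood, muscle and thymus markers also varied within groups, with the summed thymus list at 55.3, 4.01 and 1.94 CPM against 1.91, 1.48 and 208 CPM, and their part in the order of the libraries was not tested.

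Pairs of genes varied together over the 6 libraries to different degrees, given here as Pearson's r of log2 CPM between libraries that share their depth and tissue composition. The values were 0.957 for *Scg3* and *Pcsk1*, 0.943 for *Pcsk1* and *Pcsk2*, 0.945 for *Ddc* and *Syp*, 0.921 for *Chgb* and *Scg2* and 0.895 for *Chgb* and *Pcsk2*. Among the genes with the long form of the motif, r was 0.921 for *Chgb* and *Scg2*, 0.804 for *Scg2* and *Pcsk1* and 0.737 for *Chgb* and *Pcsk1*. *Ddc* and *Syp*, with neither form, had 0.831 and 0.817 with *Pcsk1*. Whether the motifs have a part in these values was not tested. *Calca* followed the genes of these pairs less closely. Its r was 0.743 with *Chgb* (exact permutation p of r = 0.0778) and 0.735 with *Scg2* (exact permutation p of r = 0.147). Spearman's rho was 0.657 for both (exact permutation p of rho = 0.175). None of the 9 relations passed after adjustment (smallest adjusted exact permutation p of r = 0.663).

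Without wild-type replicates 1 and 3, the libraries farthest from the median of *Calca*, r was 0.893 for *Chgb*, 0.995 for *Scg2*, 0.964 for *Scg3*, 0.961 for *Pcsk1*, 0.856 for *Pcsk2*, 0.992 for *Ddc*, 0.840 for *Syp* and -0.844 for *Calcb*. Among the 4 libraries left, *Calca* lay at 4599 to 4659 CPM in 3 and at 3653 CPM in the third library labelled *Thy-Tet1-/-*, so these values rest on that library. *Ret* fell into separate groups, so no pooled r is given for it. Its deviations from the group means had an r of 0.689 with those of *Calca*, and those of *Chgb* and *Scg2* 0.651 and 0.661. This r was lower for *Scg3* (0.281), *Pcsk2* (0.270) and *Pcsk1* (0.177), and below 0 for *Ddc* (-0.175), *Calcb* (-0.282) and *Syp* (-0.371). Likeness to *Calca* by r was ranked among 9943 genes with a mean of at least 10 CPM. Those most like it were *Fbxw5* (0.992), *Rasd2* (0.987), *Gmpr* (0.985), *Ecm2* (0.981) and *Cldn8* (0.980). *Chgb* ranked 527 and *Scg2* 559, while *Pcsk2* ranked 2250, *Pcsk1* 3479, *Scg3* 3775, *Ddc* 6330 and *Syp* 6534.

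The ratio of each gene to *Calca* in the same library does not depend on how libraries are scaled, and sets a gene against the defining C cell transcript. Counts of whole glands do not show whether both transcripts come from the same cells. There were 4.20, 2.26 and 3.25 *Ret* counts for every 100 *Calca* counts in the wild-type libraries and 1.08, 0.889 and 0.807 in those labelled *Thy-Tet1-/-*. Each wild-type library lay above each of the others. On the log2 scale the ratio was -4.99 ± 0.45 and -6.76 ± 0.22, a difference of -1.77 (two-sided exact permutation p = 0.10, the smallest possible with 3 against 3, and 0.771 after adjustment over 9 ratios). Without each library in turn the difference lay between -2.0 and -1.56.

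The other 8 ratios to *Calca* overlapped between the groups (exact permutation p between 0.2 and 0.8). The ratios share *Calca* as their denominator, so its own log2 fold change of 0.53 enters each of them, that of *Ret* included. All 9 were highest in wild-type replicate 1, the library in which *Calca* was lowest. *Scg3* differed by -0.72, *Ddc* by -0.95 and *Syp* by -0.80 on the log2 scale. Wild-type replicate 1 set these means apart, with log2 ratios of -4.44, -6.26 and -6.23 against -5.84, -8.37 and -9.02 in wild-type replicate 2. Without wild-type replicate 2, the library low in parathyroid markers, 4 of the 9 ratios did not overlap between the groups. In that setting *Calca* itself had a log2 fold change of 0.99, which enters every ratio. Fewer libraries also separate more readily, and the share of all genes was not computed. The 4 are therefore not read as a result for those genes.

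**Figure D3:**
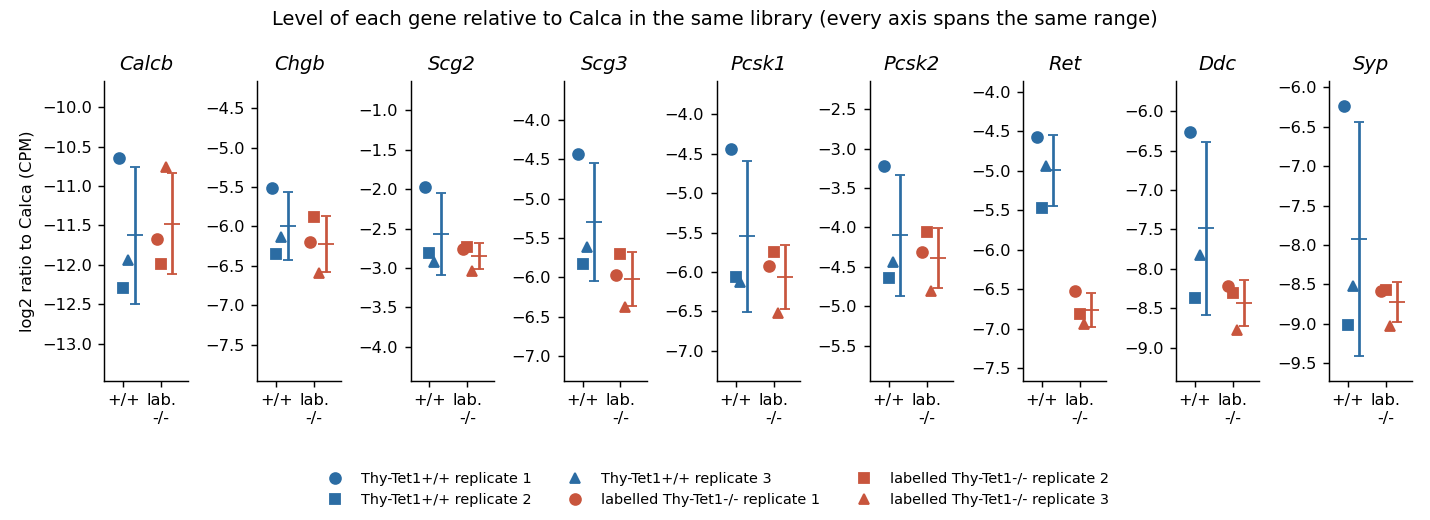
Log2 ratio of the CPM of each of 9 genes to that of *Calca* in the same library (y axis; every panel spans the same range) by group (x axis; lab. -/-, labelled Thy-Tet1-/-), with the mean and SD of 3 libraries. *Ret* is the gene whose groups are separate, and wild-type replicate 1 is the highest library in all panels.

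The genes that act with RET were measured beside it. *Gfra4*, the co-receptor for persephin and the one best known in C cells, was the most abundant of 8 ligands and co-receptors. It was counted at 30.3, 27.2 and 36.1 CPM in the wild-type libraries and at 52.6, 56.5 and 31.2 CPM in those labelled *Thy-Tet1-/-*, with overlapping groups and a log2 fold change of 0.58 just under the fold limit (SE 0.24, adjusted p = 0.254). *Artn*, which encodes the ligand artemin, was past the limits at 4.86, 11.1 and 12.8 CPM against 19.2, 15.3 and 21.6 CPM (0.95, SE 0.35, adjusted p = 0.218). Its groups did not overlap. All 6 tested genes of this role had log2 fold changes above 0, opposite in sign to that of *Ret*, as did 7080 of the 14143 tested genes. They ranged from 0.02 for *Nrtn* to 0.95 for *Artn*, and only *Artn* was called. The 6 did not include *Gdnf*, which was at 0 in 3 of the 6 libraries.

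In a wider list of 83 genes of the neuroendocrine secretory pathway, 68 had sufficient counts, of which 7 were called higher and 3 lower in the libraries labelled *Thy-Tet1-/-* (10 of 68, against 9.2% of all tested genes). No gene of the list passed an adjusted p under 0.05 in edgeR or limma-voom, 6 passed in DESeq2 (9.01% of all its genes did), and 11 had an unadjusted p under 0.05, as did 2676 of the 14143 tested genes. The groups did not overlap for 12 of the 68 genes, against 26.8% of all tested genes. The counts by role below are too small to be read against these shares. The median log2 fold change was 0.11, against 0.0006 for all tested genes. Of the 10 called genes, *Pcsk6*, *Stx1a*, *Isl1* and *Cplx2* stayed called with each library left out in turn, and the other 6 lost the call without at least 1 library. *Sst* was at 1.20 without the first library labelled *Thy-Tet1-/-*, *Pam* at -0.30 without wild-type replicate 1 and *Eno2* at 0.44 without the first library labelled *Thy-Tet1-/-*. The epithelial scaling ended the calls of *Pam* and *Cplx2* (-0.24), among others.

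Among granule cargo, 1 of 5 tested genes was called, *Sst*, which encodes the somatostatin that a subset of C cells makes. It was counted at 1.19, 4.44 and 3.66 CPM in the wild-type libraries and at 19.2, 10.5 and 4.27 CPM in those labelled *Thy-Tet1-/-* (log2 fold change 1.84, SE 0.65, adjusted p = 0.207), and the groups overlapped. *Chga* (chromogranin A), the most abundant granule gene, was at 6308, 103 and 18420 CPM against 6392, 12322 and 6566 CPM. These values followed the parathyroid markers, of which *Chga* is one, and in wild-type replicate 2 *Chga* was at its lowest while *Calca* was at its wild-type highest.

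**Figure D4:**
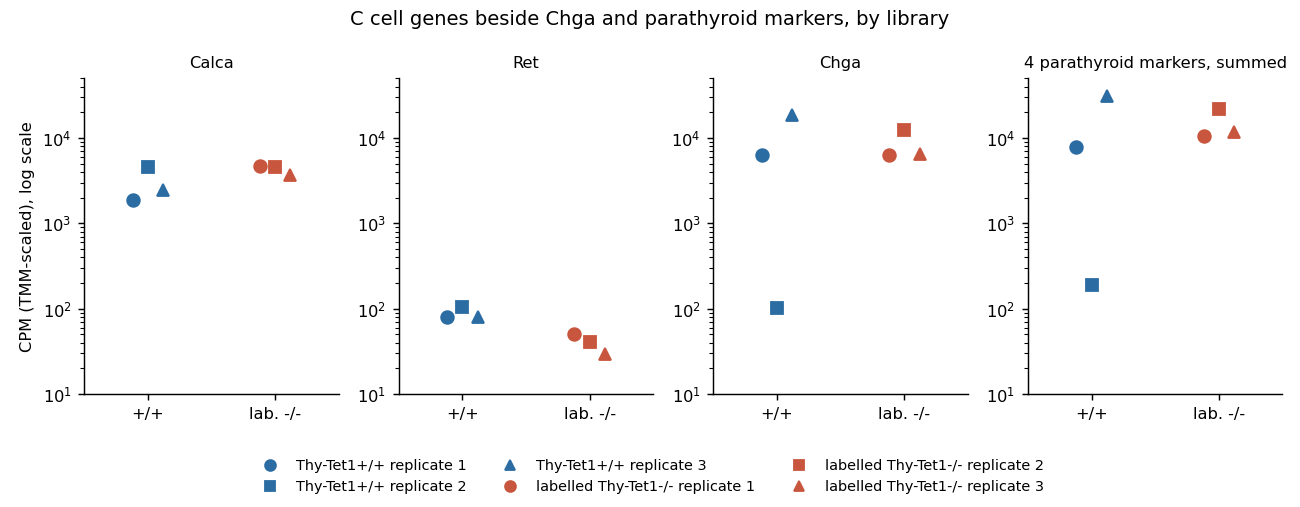
TMM-scaled CPM of *Calca*, *Ret*, *Chga* and the sum of 4 parathyroid markers, which include *Chga* (y axis, log scale), in each library by group (x axis; lab. -/-, labelled Thy-Tet1-/-). In wild-type replicate 2 (blue square) *Chga* and the parathyroid sum lie at 103 and 192 CPM, far below the other 5 libraries, while *Calca* and *Ret* do not.

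Among 7 peptide processing genes, 2 were called higher and 1 lower, where 5.54% and 3.66% of all tested genes were. The convertase genes *Pcsk6* (8.37 ± 3.59 against 19.8 ± 4.16 CPM, log2 fold change 1.25, SE 0.35, adjusted p = 0.138) and *Pcsk4* (1.77 ± 1.37 against 5.52 ± 0.817 CPM, 1.60, SE 0.57, adjusted p = 0.204) were higher, without overlap. *Pam*, the enzyme that amidates calcitonin and CGRP, was at 665, 371 and 319 CPM in the wild-type libraries and at 301, 296 and 243 CPM in those labelled *Thy-Tet1-/-* (-0.69, SE 0.29, adjusted p = 0.258). These groups did not overlap either. *Pcsk6* and *Pcsk4* are not known as convertases of calcitonin.

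Of 19 tested genes of vesicle exocytosis, 1 was called higher and 2 lower. *Cplx2*, the most abundant, encodes complexin 2, a clamp of the fusion machinery, and had 297, 229 and 197 CPM against 146, 144 and 130 CPM (log2 fold change -0.79, SE 0.17, adjusted p = 0.102). *Stx1a*, which encodes syntaxin 1A, was higher, at 2.24 ± 0.704 against 5.35 ± 0.0885 CPM (1.26, SE 0.33, adjusted p = 0.129). Neither gene overlapped between the groups.

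Of 8 tested transcription factors, *Isl1*, expressed in C cell development, was called at 8.06 ± 0.586 against 13.9 ± 2.58 CPM (log2 fold change 0.79, SE 0.20, adjusted p = 0.122), while *Rest*, the repressor of neuronal genes and the most abundant of them, was at 17.0 ± 1.29 against 19.2 ± 5.11 CPM. *Eno2*, the neuron-specific enolase used as a neuroendocrine marker, was called at 12.9 ± 3.05 against 20.6 ± 5.66 CPM (0.67, SE 0.27, adjusted p = 0.240), the only call among 6 tested surface and cytoplasmic genes. None was called among 4 tested amine genes, where *Maoa* was the most abundant (52.0 ± 6.06 against 46.4 ± 4.55 CPM), among 8 channel and calcium sensing genes, led by *Casr* (272 ± 248 against 273 ± 123 CPM), or among 5 calcitonin and CGRP receptor genes, led by *Calcrl* (39.5 ± 16.3 against 30.2 ± 2.02 CPM). *Casr*, the calcium sensor of C cells and of parathyroid cells, was lowest in wild-type replicate 2, at 31.8 CPM.

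Other cells that can express neuroendocrine genes were checked by marker lists. The 8 markers of autonomic and sensory neurons summed to between 6.58 and 11.3 CPM in the wild-type libraries and to between 6.86 and 13.7 CPM in the others, and *Dbh* and *Th*, which define adrenergic neurons, had at most 3 counts in any library. The 5 Schwann cell markers summed to between 108 and 211 CPM and to between 84.8 and 154 CPM. Both ranges overlapped between the groups. The adipocyte list ranged from 144 to 433 CPM in the wild-type libraries and from 318 to 1282 CPM in the others, the blood list from 194 to 854 and from 158 to 376 CPM, and the skeletal muscle list from 573 to 4932 and from 13.5 to 5240 CPM. Single markers did differ: *Mbp*, a myelin gene and the most abundant of the Schwann cell list, was called lower without overlap (108 ± 39.7 against 54.4 ± 8.61 CPM, log2 fold change -0.99, edgeR adjusted p = 0.134), the direction of *Ret*, while *Sox10* of the same list was at 1.24 ± 0.391 against 2.42 ± 0.739 CPM, also without overlap. *Fabp4* of the adipocyte list was called higher (1.55, edgeR adjusted p = 0.179). The part of Schwann cell, adipocyte and follicular transcripts in the *Ret* difference was not tested.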

How the data were processed

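The authors deposited raw counts per gene for 6 libraries, with NCBI gene identifiers and 0 further columns of values. The labels describe poly(A) selection and a directional library in a protocol that speaks of retinas, and give mm10 as the build. Aligner, counter and strand setting are not given in the sources used here. Counts were analysed with edgeR 4.0.16 in R 4.3.3 (filterByExpr, TMM, glmQLFit and glmQLFTest, Benjamini-Hochberg adjustment over 14143 genes). Genes were called where the log2 fold change exceeded 0.585 in either direction with an edgeR p below 0.05 before adjustment. Log2 CPM had a prior count of 2. The biological coefficient of variation was 0.327, and counting floors cover counting error only. Levels per kilobase used the longest coding transcript of GENCODE M21. Ratios and correlations had exact permutation tests. DESeq2 1.42.0, limma-voom (limma 3.58.1), other scalings and filters, the replicate block and each library left out were tried as alternatives, and the code was tested on simulated data.

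The genes, the lists and the rules were chosen with earlier results of these data known. The named genes were all 10 C cell genes, *Tet1*, the called genes and the most abundant gene of each role in the wider list, and the 5 genes most like *Calca*. The result for 1 gene that the rule names is not reported here. *Gdnf* was named after its values were seen. The scaling alternative used 10 epithelial genes. Replicate numbers come from the sample titles, and replicates of a group differed by more than sampling noise. Nothing in the sources ties same-numbered mice to a litter or a day.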

Additional observations from a re-analysis of the deposited data

How the results depend on the processing

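*Ret* kept its direction under every alternative run, and past the limits under all but the scaling to epithelial genes. That scaling called 5 C cell genes, all of them higher (*Calca*, *Calcb*, *Chgb*, *Scg2* and *Pcsk2*), 23 genes of the wider list and 4912 of all tested genes. Leaving out each library in turn gave 1 to 2 called C cell genes and 4 to 12 called genes of the wider list, against 1074 to 1502 of all tested genes. The wider list had 4 calls without the first library labelled *Thy-Tet1-/-*, the run with the 1074. Between 1 and 4 ratios to *Calca* did not overlap (4 without wild-type replicate 2, 2 without the second library labelled *Thy-Tet1-/-*). These ratios share their denominator, and no share of all genes was computed for them.

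Log2 fold changes of genes near 0 changed sign. *Scg3* was 0.091 with total counts and 0.49 with epithelial scaling, and ranged from -0.30 to 0.16 with 1 library left out. *Pcsk1* ranged from -0.22 to 0.38 with 1 library left out and was 0.64 with epithelial scaling. *Ddc* was 0.18 and *Syp* 0.13 with epithelial scaling, *Syp* was 0.030 in limma-voom, and with 1 library left out they ranged from -0.59 to 0.055 and from -0.71 to 0.43. With 1 library left out, log2 differences of the ratio to *Calca* ranged from -0.21 to 0.64 for *Calcb*, from -0.40 to 0.018 for *Chgb*, from -0.45 to 0.021 for *Scg2*, from -0.81 to 0.032 for *Pcsk1*, from -0.56 to 0.15 for *Pcsk2* and from -1.35 to 0.042 for *Syp*. The last 5 changed sign without wild-type replicate 1, and *Calcb* without wild-type replicate 2 or 3 or without the third library labelled *Thy-Tet1-/-*. The cause was not tested.

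The replicate numbers did not pair the libraries: deviations of same-numbered libraries correlated at -0.167, -0.372 and -0.193. With the replicate number as a block, 1 C cell gene was called, *Ret* at -1.15 (edgeR adjusted p = 0.242), 8 of the wider list and 1145 of all tested genes, and the *Ret* to *Calca* ratio had an exact sign-flip p of 0.25, the smallest with 3 pairs. With 3 libraries a group and the spread seen here, *Calcb*, *Syp* and *Calca* differences of the size given could not be told from 0.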
